A study of Mus musculus with 2 samples.

Results

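The genes described here are 7 genes by which granule cells of the dentate gyrus are known in the mouse hippocampus: Prox1, C1ql2, C1ql3, Dsp, Tdo2, Stxbp6 and Glis3. They were chosen by symbol and are 7 of 55536 annotated genes, with 28 of 141767 annotated transcripts. Total RNA was sequenced from hippocampal tissue of 25-day-old males of B6CASTF1/J, which are F1 hybrid mice, and no treatment or engineered allele is given in the labels. The series has 1 group of 2 biological replicates, and each library took 300 ng of total RNA plus the ERCC spike-ins, synthetic RNAs added in known amounts. The replicates have separate tissue identifiers and share a donor identifier, so whether they came from separate animals is not settled and their spread may be technical.

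The labels call the tissue a layer of the hippocampus without saying which, and markers of granule cells and of the CA1, CA2 and CA3 fields were all measured in it. The depth over annotated genes was 30635891 expected counts for replicate 1 and 35713471 for replicate 2. An expected count is an estimate of the reads of a gene, and a count of 0 allows up to 3 counts. The unit of level is TPM, the share of all transcripts after correction for length, and gene positions refer to mm10. With 1 group there is no condition to compare, and no p-values are given.

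Granule cells are the main excitatory neurons of the dentate gyrus, and their axons, the mossy fibres, contact pyramidal cells of CA3. Prox1 encodes a homeobox transcription factor that mouse granule cells need to acquire and keep their identity. C1ql2 and C1ql3 encode secreted proteins of the C1q family that mossy fibres release at their synapses. Dsp encodes desmoplakin, which in epithelia ties cell junctions to intermediate filaments, and Tdo2 encodes tryptophan dioxygenase, best known from the liver, and transcripts of both are used as granule cell markers in mouse brain. Stxbp6 encodes amisyn, which binds proteins of the secretory SNARE machinery, and Glis3 encodes a zinc finger transcription factor best known from pancreas, thyroid and kidney.

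Prox1 has annotated starts at separate sites, and the sequences before them are shown because its transcripts are divided between these starts. Both windows are the 250 bases before a RefSeq start site on the minus strand of GRCm38.p6, the assembly also called mm10. The upstream window is chr1:190170828-190171077 and the downstream window is chr1:190169516-190169765. Neither overlaps an annotated exon of Prox1 or of the antisense gene Prox1os. The downstream window does hold the end of another antisense gene, Gm28172, which runs from 190168670 to 190169633. Gm28172 shares 0 exon bases with Prox1 and had 0.12 TPM in replicate 1 and 0.80 TPM in replicate 2. The RefSeq starts lie 113 bases before the annotated start of transcript Prox1-202 and 116 bases before that of Prox1-201. Capitals mark CAGATG, a hexamer that basic helix-loop-helix factors can bind, and TATAAA, the core of the TATA box, on either strand.
Prox1 upstream: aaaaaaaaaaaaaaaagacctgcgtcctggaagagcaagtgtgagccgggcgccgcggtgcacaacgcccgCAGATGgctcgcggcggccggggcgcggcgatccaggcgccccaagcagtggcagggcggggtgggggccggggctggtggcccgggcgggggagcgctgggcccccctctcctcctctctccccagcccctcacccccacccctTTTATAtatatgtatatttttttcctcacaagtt
Prox1 downstream: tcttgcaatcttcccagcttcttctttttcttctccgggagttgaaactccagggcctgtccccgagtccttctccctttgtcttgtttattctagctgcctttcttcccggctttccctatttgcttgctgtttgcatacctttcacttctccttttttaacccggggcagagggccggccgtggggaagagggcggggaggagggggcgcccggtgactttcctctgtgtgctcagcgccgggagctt
The upstream window holds both motifs and the downstream window holds neither. The TATAAA match reads TTTATA as printed, so it lies on the strand opposite to Prox1.

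All 7 genes were matched to RefSeq windows running from 250 bases before a start to 50 after it, 8 windows in all because Prox1 has a pair. The RefSeq starts of C1ql3 (13010864), Tdo2 (81975728) and Stxbp6 (45074483) lie inside the annotated genes. These minus-strand genes begin at 13011806, 81976202 and 45074709. The C1ql3 and Tdo2 windows therefore lie wholly within the annotated genes, not before them. The motifs were chosen with these windows in view, and a match is a description only. CAGATG, read on both strands, was found in 1 of the 8 windows, against 17.2% of 32851 windows over all genes. TATAAA was found in 2 of the 8, the upstream Prox1 window and the Tdo2 window, against 13.6% of all windows. The cyclic AMP response element TGACGTCA was found in 0 of the 8, against 1.79% of all windows. The windows of 6 genes were richer in G and C than the median window of 52.7%, from 57.3% in the downstream Prox1 window to 76.3% in the Glis3 window. Tdo2 stood apart from them at 47.7%. The ratio of observed to chance CpG dinucleotides was 0.236 in the Tdo2 window, 0.568 to 0.807 in the other 7, and 0.384 in the median window.

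All 7 genes were detected at a mean of at least 1 TPM, as were 58.9% of 22028 protein-coding genes and 27.4% of all annotated genes. Of the 7 genes, 4 reached 10 TPM, and the median over the 7 genes was 29.7 TPM, against 15.05 TPM over detected protein-coding genes. The genes fell into an upper set of 4, C1ql3, Prox1, C1ql2 and Stxbp6, and a lower set of 3, Tdo2, Glis3 and Dsp. In RNA from whole tissue, more cells of a type and more RNA per cell cannot be told apart. In the RSEM table no reads of the 7 genes were divided with another gene, since the posterior SD of the gene's count was 0 in both libraries for each. In kallisto the gene counts of Stxbp6 and Glis3 in both libraries, and of C1ql2 and C1ql3 in replicate 2, were not whole to within 0.01 counts, so that some reads were divided with other genes there.

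Prox1, the homeobox factor, had 52.79 TPM in replicate 1 and 41.49 TPM in replicate 2, from 7000 and 6718 expected counts. Its mean of 47.1 ± 7.99 TPM (SD, n = 2) ranked 2213 among 22028 protein-coding genes. The authors' 95% credibility intervals, which cover the uncertainty of read assignment and counting, ran from 49.5 to 52.8 TPM in replicate 1 and from 39.0 to 41.6 TPM in replicate 2. The replicates of Prox1 therefore lay apart by more than that uncertainty. Its relative Prox2 was near the threshold, at 0.92 TPM in replicate 1 and 1.06 TPM in replicate 2.

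The other transcription factor, Glis3, was lower than Prox1 in both libraries. It had 8.05 TPM in replicate 1 and 6.67 TPM in replicate 2, from 716 and 612 expected counts, a mean of 7.36 ± 0.976 TPM (SD, n = 2). Its credibility intervals overlapped, from 7.72 to 10.6 TPM in replicate 1 and from 6.38 to 8.64 TPM in replicate 2. Of the 5 related GLI and GLI-similar factors, which share the zinc finger domain of Glis3, 4 were detected. Glis2 had the highest mean at 7.27 ± 0.552 TPM, followed by Gli3 at 3.99 TPM, Gli2 at 1.64 TPM and Gli1 at 1.39 TPM, while Glis1 was at 0.685 TPM. The kallisto mean of Glis1 was 1.17 TPM, above the threshold. In RSEM the replicate values of Glis2, 6.88 and 7.66 TPM, lay inside the range of those of Glis3. In kallisto they did not overlap, with 15.6 and 12.9 TPM for Glis3 and 8.70 and 10.4 TPM for Glis2.

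C1ql3 was the highest of the 7 genes. It had 66.01 TPM in replicate 1 and 68.76 TPM in replicate 2, from 3349 and 4098 expected counts, and its mean of 67.4 ± 1.94 TPM (SD, n = 2) ranked 1429 among protein-coding genes. C1ql2 had 36.27 TPM in replicate 1 and 37.77 TPM in replicate 2, from 1436 and 1757 expected counts, a mean of 37.0 ± 1.06 TPM. Both secreted proteins are made from 1 annotated transcript. The level of C1ql3 was 1.82 times that of C1ql2 in each library. By expected counts, which are not corrected for length, the ratio was 2.33 in each, with transcripts of 2535 bases for C1ql3 and 2000 bases for C1ql2.

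The coding sequences of this pair were compared because near-identical paralogs could exchange reads. C1ql2 has 861 coding bases and C1ql3 has 765, and 580 of 758 aligned bases were identical, or 76.5%. The longest run shared exactly by the whole transcripts was 38 bases. The most alike stretch of 60 bases is shown, with capitals at the 5 bases that differ. It covers coding bases 504 to 563 of C1ql2 and 408 to 467 of C1ql3, counted from the start codon, in the annotated mouse transcripts.
C1ql2: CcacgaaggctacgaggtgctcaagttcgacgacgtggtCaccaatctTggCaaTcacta
C1ql3: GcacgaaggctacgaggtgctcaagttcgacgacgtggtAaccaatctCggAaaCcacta
RSEM divided no reads of either gene with another, as the posterior SD of 0 given above shows. kallisto gave whole counts for both in replicate 1, and 1787.35 counts for C1ql2 and 4429.65 counts for C1ql3 in replicate 2, which sum to 6217 counts.

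The other members of the C1q-like and cerebellin family, secreted synaptic proteins of the same domain, were all below the C1ql2 and C1ql3 levels. C1ql1 had 8.81 TPM in replicate 1 and 9.22 TPM in replicate 2, and C1ql4 had 0.07 and 0.03 TPM. Among the cerebellins, Cbln2 had a mean of 5.18 TPM, Cbln4 of 3.10 TPM and Cbln1 of 2.44 TPM, while Cbln3 stayed under 1 TPM in both libraries. Thus 4 of these 6 relatives were detected and 0 reached 10 TPM. All 4 genes for proteins that bind C1q-like proteins in mouse reached it. These are the presynaptic adhesion protein gene Nrxn3 at 77.5 ± 9.18 TPM, the adhesion receptor gene Adgrb3 at 49.5 ± 2.74 TPM, and the kainate receptor subunit genes Grik2 at 42.8 ± 8.34 TPM and Grik4 at 25.0 ± 1.26 TPM (SD, n = 2 each). These partners are made by other hippocampal neurons too.

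Stxbp6, the gene for amisyn, had 33.35 TPM in replicate 1 and 26.03 TPM in replicate 2, from 2335 and 2593 expected counts. Its mean was 29.7 ± 5.18 TPM (SD, n = 2), and its credibility intervals overlapped, from 29.1 to 38.1 TPM in replicate 1 and from 24.4 to 30.6 TPM in replicate 2. Among other syntaxin-binding protein genes, Stxbp2 had a mean of 17.7 TPM, Stxbp3 of 9.64 TPM and Stxbp4 of 4.74 TPM. The tomosyn genes Stxbp5l and Stxbp5, whose products share a SNARE-like domain with amisyn, had means of 58.5 ± 5.99 TPM and 47.3 ± 1.77 TPM. Of SNARE genes whose products amisyn can bind, Snap25 had a mean of 831 ± 42.0 TPM, Stx1a of 49.4 TPM and Stx4a of 26.5 TPM.

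Tdo2, the tryptophan dioxygenase gene, had 8.26 TPM in replicate 1 and 8.25 TPM in replicate 2, from 261 and 303 expected counts, the fewest of the 7 genes. Of 11 other genes of tryptophan breakdown, 3 were detected. These were Kyat1 at 7.68 ± 0.580 TPM and Kyat3 at 2.51 ± 0.276 TPM, which encode kynurenine aminotransferases, and the formamidase gene Afmid at 1.87 ± 0.141 TPM. Ido1 and Ido2, which encode the enzymes that share the reaction of Tdo2, had means of 0.085 TPM and 0.67 TPM, both below the Tdo2 mean. In RSEM the genes for the later enzymes Kmo, Kynu and Haao were at or below 0.14 TPM in both libraries. Acmsd had 0 expected counts in both there, which allows up to 3. The kallisto values were 0.31 and 0.27 TPM for Kynu, 0.21 and 0.20 TPM for Haao and 0.55 and 0.23 TPM for Acmsd. Kmo had 0.14 and 0.15 TPM there, and all of these lay below the threshold.

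Dsp was the lowest of the 7 genes by TPM, although its long transcript gave it more expected counts than Tdo2 or Glis3. It had 6.05 TPM in replicate 1 and 4.63 TPM in replicate 2, from 1106 and 978 expected counts, a mean of 5.34 ± 1.00 TPM (SD, n = 2). The credibility intervals did not overlap, from 5.54 to 6.70 TPM in replicate 1 and from 4.27 to 5.33 TPM in replicate 2. Of 11 other desmosome and plakin genes, 3 were detected, the plakophilin genes Pkp4 at 128 ± 15.7 TPM and Pkp2 at 17.9 ± 1.01 TPM and the plakoglobin gene Jup at 14.8 ± 0.926 TPM. All of the desmosomal cadherin genes on the list were under the threshold on average in RSEM. In kallisto, Dsg2 and Dsc3 passed it, with means of 1.74 TPM and 1.17 TPM. The RSEM values follow. Dsg2 had 0.90 TPM in replicate 1 and 1.07 TPM in replicate 2, Dsc3 had 0.64 and 0.43 TPM, Dsc2 had 0.23 and 0.18 TPM, and Dsg3 had at most 0.01 TPM.

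**Figure D1:**
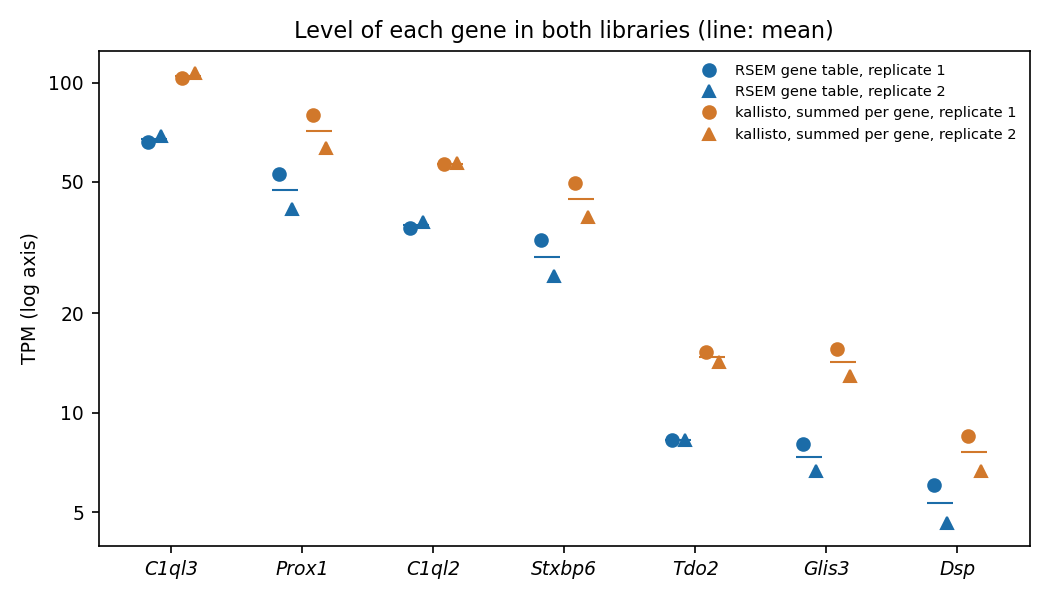
The level of each gene in TPM on a log axis, with circles for replicate 1, triangles for replicate 2, lines for their mean, blue for the RSEM gene table and orange for kallisto estimates summed per gene. In RSEM the genes run from C1ql3 at 67.4 TPM to Dsp at 5.34 TPM, with a gap between Stxbp6 and Tdo2, and every kallisto value lies above its RSEM counterpart.

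In the order C1ql3, Prox1, C1ql2, Stxbp6, Tdo2, Glis3 and Dsp, the replicate values of each neighbouring pair did not overlap in the RSEM table. The gap between Tdo2 and Glis3 was small, with a lowest Tdo2 value of 8.25 TPM and a highest Glis3 value of 8.05 TPM. The kallisto estimates, made from the same libraries, gave the same order by mean. There, Tdo2 had 15.3 TPM in replicate 1 and 14.3 TPM in replicate 2 and Glis3 had 15.6 and 12.9 TPM, so that these neighbours overlapped, while the other 5 pairs did not. They also overlapped in the posterior mean TPM of the RSEM table, where Glis3 had 9.13 and 7.46 TPM and Tdo2 had 8.21 and 8.20 TPM, with the mean of Glis3 the higher. kallisto TPM were 1.42 to 1.94 times RSEM TPM, lowest for Dsp and highest for Glis3, although the estimated counts were only 1.03 to 1.10 times as high.

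The spread between the replicates differed among the 7 genes. On expected counts scaled by the TMM method, the log2 ratio of replicate 1 over replicate 2 was 0.42 for Glis3, 0.37 for Dsp and 0.25 for Prox1. It was 0.04 for Stxbp6, -0.03 for Tdo2 and -0.10 for both C1ql2 and C1ql3. The median over 12719 genes with a mean count of at least 100 was -0.04 with an SD of 0.28. Among these genes, 4.57% had a larger absolute ratio than Glis3, 6.06% a larger one than Dsp and 13.7% a larger one than Prox1. 0 of the 7 genes were more than 2-fold apart, as were 0.778% of the 12719 genes and 0.0756% of the 11905 protein-coding genes among them, and 4 of the 7 were higher in replicate 1, against 39.3% of the 12719. Scaling by spike-ins added 0.21 to every ratio, moved the median of all genes to 0.17, and made the ratios of Tdo2, C1ql2 and C1ql3 positive, at 0.18, 0.10 and 0.10.

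**Figure D2:**
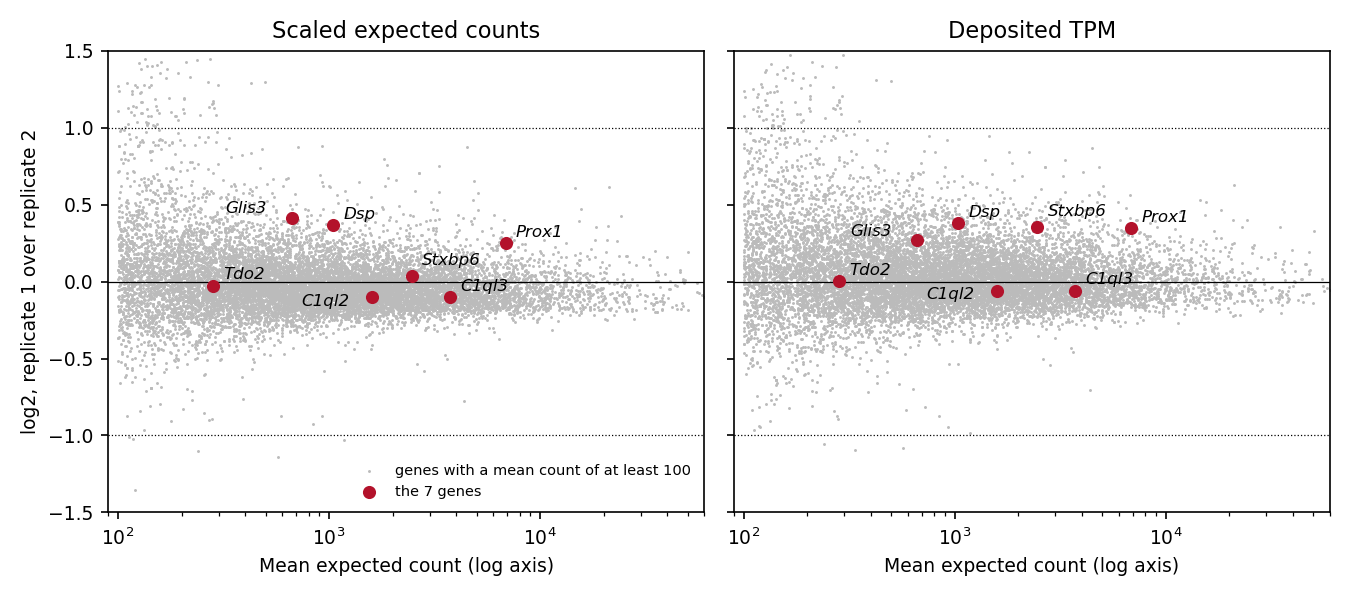
The log2 ratio of replicate 1 over replicate 2 against the mean expected count on a log axis, from TMM-scaled expected counts on the left and deposited TPM on the right, for 12719 genes in grey and the 7 genes in red. Dotted lines mark 2-fold, 38 genes on the left and 39 on the right lie outside the axes, and Stxbp6 sits at 0.04 on the left and 0.36 on the right.

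Stxbp6 was the gene whose ratio depended most on the unit. On the TPM scale its log2 ratio was 0.36, against 0.04 on scaled counts. The gene has 6 annotated transcripts, of which 4 are short models of under 1000 bases. These short models took 50.8 expected counts in replicate 1 and 14.4 in replicate 2, which came to 8.18 TPM and 2.03 TPM. The 2 long models took 2284 and 2579 expected counts, or 25.17 TPM and 24.00 TPM. Summed over the long models alone, a choice made after the values were seen, the log2 ratio on the TPM scale was 0.07. On kallisto counts it was 0.01.

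Among the transcripts of Prox1, Prox1-202 led in both libraries, with 69.3% of the gene's TPM in replicate 1 and 74.6% in replicate 2. Prox1-203 held 17.9% and 13.9%, and Prox1-201 held 12.8% and 11.6%. All 3 have the same coding length of 2211 bases and 737 codons and differ in their untranslated ends. Prox1-202 has 5188 bases of 3′ untranslated sequence, against 213 in Prox1-203 and 770 in Prox1-201, and it took 86.5% of the gene's expected counts on average. Prox1-202 and Prox1-203 begin at the upstream start, and Prox1-201 begins 1.315 kb further into the gene. The upstream pair held 87.2% of the TPM in replicate 1 and 88.4% in replicate 2, and in kallisto 77.6% and 83.0%. The window that holds CAGATG and TATAAA is thus the one before the start of the models with the larger share in both tables. The shares are of whole transcript models, which also differ in their 3′ ends, and use of the starts themselves was not tested.

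The first exons of Prox1-202 and Prox1-203 overlap Prox1os, an antisense gene on the plus strand at chr1 from 190170296 to 190217276, by 133 bases. Prox1os had 5.14 TPM in replicate 1 and 4.26 TPM in replicate 2, from 78 and 76 expected counts. The level of Prox1 was 10.3 times that of Prox1os in replicate 1 and 9.74 times in replicate 2. Whether the authors' counting used strand is not given in the sources used here, but in RSEM the counts of Prox1 and Prox1os were whole, with a posterior SD of 0 in both libraries, so that no reads were divided between them. An unconfirmed transcript opposite C1ql3, Gm37811, shares 1547 exon bases with it and had 0.86 TPM in replicate 1 and 1.01 TPM in replicate 2, and another opposite Dsp, Gm10129, shares 499 and had 0.04 and 0 TPM. Their posterior SD was 0 too.

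**Figure D3:**
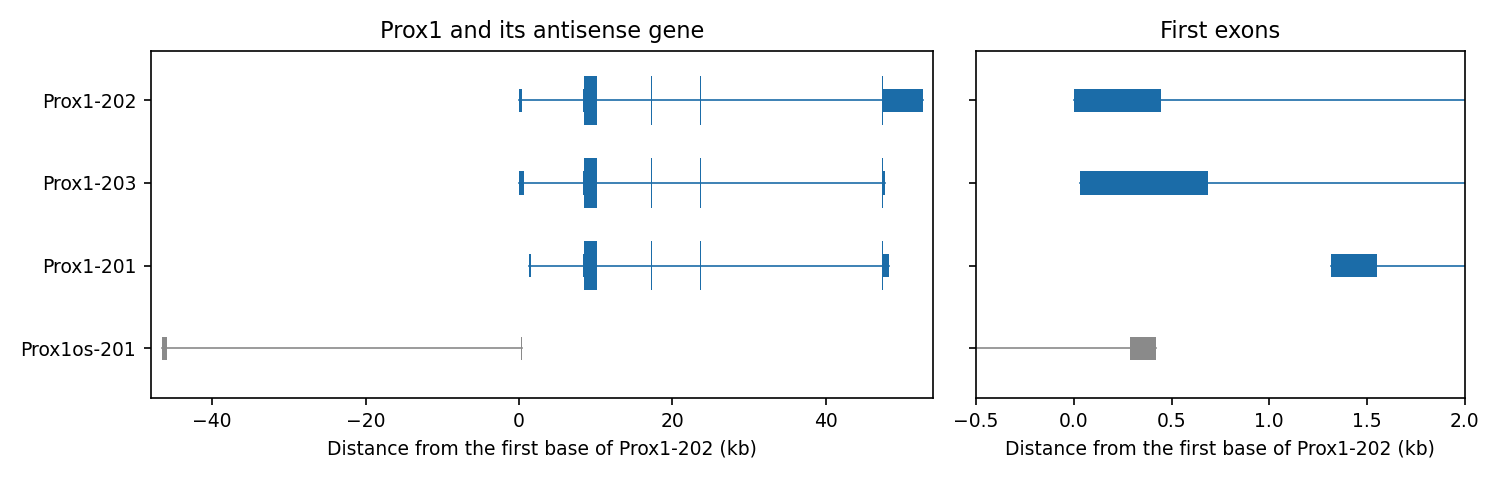
Transcript models of Prox1 in blue and of the antisense gene Prox1os in grey, by distance in kb from the first base of Prox1-202 along the direction of Prox1, with the first exons enlarged on the right. The antisense gene Gm28172 is not drawn. Tall boxes are coding and low boxes are not, and Prox1-202 differs from Prox1-203 and Prox1-201 mainly by its long last exon of mostly untranslated sequence.

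Dsp was divided between transcripts that encode a long and a short form of desmoplakin. Dsp-201, with 8649 coding bases, held 61.0% of the TPM in replicate 1 and 52.7% in replicate 2. Dsp-202, with 6852 coding bases, held 39.0% and 47.3%. Both have 24 exons and differ in where exon 23 ends, with 2295 bases of it in Dsp-201 and 498 in Dsp-202, which shortens the rod domain. The junctions of exon 23 with exon 24 on the plus strand of chromosome 13 are shown from the annotated transcripts, with capitals for the end of exon 23. That exon ends at 38193655 in Dsp-201 and at 38191858 in Dsp-202, and both continue at 38194696.
Dsp-201: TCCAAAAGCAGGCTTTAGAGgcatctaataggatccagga
Dsp-202: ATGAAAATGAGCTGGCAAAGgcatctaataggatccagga
The long form led in both libraries, and in RSEM the short form held at least 39.0% of the gene's TPM in each. In replicate 2 the RSEM credibility intervals overlapped, from 2.00 to 2.82 TPM for Dsp-201 and from 1.59 to 2.57 TPM for Dsp-202. In replicate 1 they did not. In kallisto, Dsp-202 held 33.3% in replicate 1 and 36.0% in replicate 2, and Dsp-201 again led.

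Glis3, with 10 annotated transcripts, had no leading transcript that both tables shared. In RSEM, Glis3-202 held 38.3% of the TPM in replicate 1 and 33.4% in replicate 2, and Glis3-209 held 33.4% and 23.0%. Glis3-209 encodes the long protein from 2805 coding bases, while Glis3-202 leaves it after exon 6 and ends with an exon of its own after 2013 coding bases. By expected counts, Glis3-209 led with 51.8% on average. The junctions after exon 6 on the minus strand of chromosome 19 are shown, with capitals for the exon that follows. Exon 6 ends at 28354206 in both, and the next exon begins at 28317413 in Glis3-209 and at 28350027 in Glis3-202.
Glis3-209: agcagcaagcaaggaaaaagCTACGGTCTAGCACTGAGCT
Glis3-202: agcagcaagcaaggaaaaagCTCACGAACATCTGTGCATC
In kallisto, the retained-intron model Glis3-207 led, with 26.7% in replicate 1 and 39.5% in replicate 2, against 4.71% and 24.7% in RSEM. Glis3-206, a model without a coding sequence, held 20.1% and 18.7% in kallisto and 0% in both libraries in RSEM. Protein-coding models together held 72.8% and 56.4% of the gene's TPM in RSEM and 48.6% and 40.4% in kallisto.

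The Tdo2 TPM rested in large part on a short model. Tdo2-203, a transcript of 612 bases without a coding sequence, held 47.5% of the TPM in replicate 1 and 48.2% in replicate 2, but only 16.3% of the expected counts on average. Tdo2-201, which encodes the enzyme from 1218 coding bases in 12 exons, held 27.0% of the TPM in both libraries and 59.7% of the expected counts. Tdo2-204, which has 1161 coding bases, held 24.1% and 22.3% of the TPM. Summed over the 2 coding models, Tdo2 had 4.22 TPM in replicate 1 and 4.07 TPM in replicate 2, below the sum for all 4 models. In kallisto, Tdo2-204 led in replicate 1 with 42.2% and Tdo2-203 led in replicate 2 with 39.0%.

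Stxbp6-201 led its gene in both libraries, with 54.4% of the TPM in replicate 1 and 75.4% in replicate 2. Stxbp6-202, which has the same 630 coding bases and another first exon, held 21.1% and 16.8%. The short model Stxbp6-205 held 12.6% and 4.96% in RSEM and 0% in both libraries in kallisto. The short models Stxbp6-206 and Stxbp6-203 held 5.82% and 6.15% in replicate 1 and 2.84% and 0% in replicate 2. In kallisto, Stxbp6-201 held 57.4% in replicate 1 and 64.8% in replicate 2, so that both tables gave it the larger share in replicate 2.

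A leading transcript with at least 50% of the gene's TPM was found for 5 of the 7 genes. C1ql2 and C1ql3 are among them only because each has 1 annotated transcript, which fixes its share at 100%. For Prox1, Stxbp6 and Dsp this leader was also the leader in kallisto in both libraries. Over 11726 detected protein-coding genes with several transcripts, a set without C1ql2 and C1ql3, 69.1% had such a leader.

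**Figure D4:**
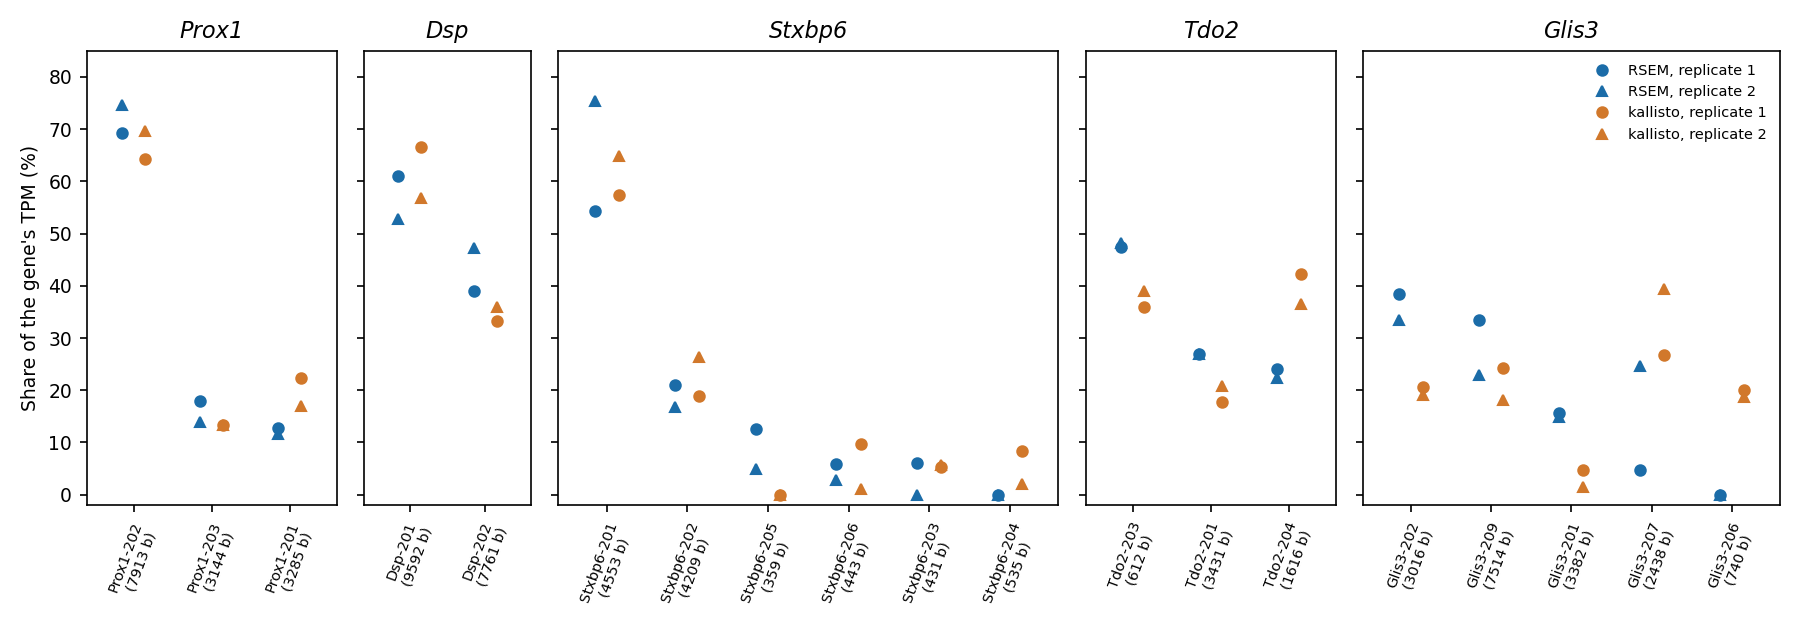
The share of each transcript in its gene's TPM, in percent, for transcripts with a mean share of at least 5% in either table, with the transcript's length in bases (b) below its name. Circles are replicate 1, triangles replicate 2, blue RSEM and orange kallisto; Prox1-202 holds 64.4% to 74.6% in all 4 estimates, while the leader of Tdo2 and of Glis3 differs between the tables.

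Of 7 other genes known from mature granule cells in mouse, all were detected and 6 reached 10 TPM. The calcium buffer gene Calb1 had 69.49 TPM in replicate 1 and 75.26 TPM in replicate 2. The transcription factor gene Rfx3 had 58.75 and 51.37 TPM, and Dock10, which encodes an activator of small GTPases, had 39.39 and 32.80 TPM. The lowest was Plk5, a member of the polo-like kinase family, with 6.23 and 4.70 TPM. Their median of 34.0 TPM lay close to the 29.7 TPM of the 7 genes. On scaled counts 5 of these 7 were higher in replicate 1, with a median log2 ratio of 0.09. Over the 12719 genes with a mean count of at least 100, 39.3% were higher there, and the median was -0.04. Calb1 and Kcnk1 were higher in replicate 2, at -0.10 and -0.12, and Trpc6 was near equal, at 0.05.

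Markers of cells that could carry the same transcripts or sit beside granule cells were measured too. All 5 CA1 markers were detected, with a median of 53.7 TPM, as were 5 of 6 CA2 markers with 24.3 TPM and all 5 CA3 markers with 23.6 TPM. Hilar mossy cell markers had a median of 2.76 TPM, with 3 of 4 detected. Of the immature granule lineage, 4 of 6 markers were detected, with Neurod1 at 16.7 TPM and Dcx at 10.2 TPM, while the progenitor factor gene Eomes was at 0.63 TPM. The summed level of that list was 44.53 TPM in replicate 1 and 41.96 TPM in replicate 2.

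Prox1 is also made by some interneurons, oligodendrocyte precursors and lymphatic endothelium. All 6 interneuron markers were detected. Their sum was 355 TPM in replicate 1 and 403 TPM in replicate 2 and does not measure interneurons as such. It rests mainly on the cholecystokinin gene Cck, at 290 and 335 TPM. Of the others, Vip had 5.20 and 8.23 TPM, Lamp5 16.5 and 19.5 TPM and Htr3a 5.70 and 6.86 TPM, while Reln had 22.4 and 19.1 TPM and Adarb2 15.5 and 14.0 TPM. The members of this list thus differed in which replicate was higher. All 5 oligodendrocyte lineage markers were detected and summed to 1002 and 1046 TPM. That sum rests mainly on the myelin gene Mbp, at 930 and 970 TPM, and does not measure the precursors. There too directions differed in RSEM TPM, with Pdgfra at 18.9 and 21.6 TPM and Enpp6 at 9.69 and 7.80 TPM. In kallisto Enpp6 was higher in replicate 2, with 11.7 TPM in replicate 1 and 14.1 TPM in replicate 2. On scaled counts 0 of the 4 oligodendrocyte lineage markers with a mean count of at least 100 were higher in replicate 1. Over all genes at that minimum, 39.3% were. Of the lymphatic markers 1 was detected in RSEM, Pdpn at 7.89 TPM, which other cells also make, while Lyve1 was at 0.335 TPM and Ccl21a at 0. Flt4 was near the threshold, with 1.05 TPM in replicate 1 and 0.80 TPM in replicate 2, and its kallisto mean of 1.41 TPM lay above it. The part of interneurons and oligodendrocytes in the Prox1 level was not tested.

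Dsp and Col1a1 or Dcn can be made together in meninges, and Dsp is made in epithelia. The keratin genes Krt8 and Krt18 and the cadherin gene Cdh1, which define epithelia, had means of 0.05, 0.16 and 0.205 TPM. The connective tissue gene Dcn had 11.15 TPM in replicate 1 and 20 TPM in replicate 2, and Col1a1 had 7.90 and 6.86 TPM. The whole list, with 2 of 6 detected, summed to 20.28 TPM in replicate 1 and 28.42 TPM in replicate 2. The part of meningeal cells in the Dsp level was not tested.

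**Figure D5:**
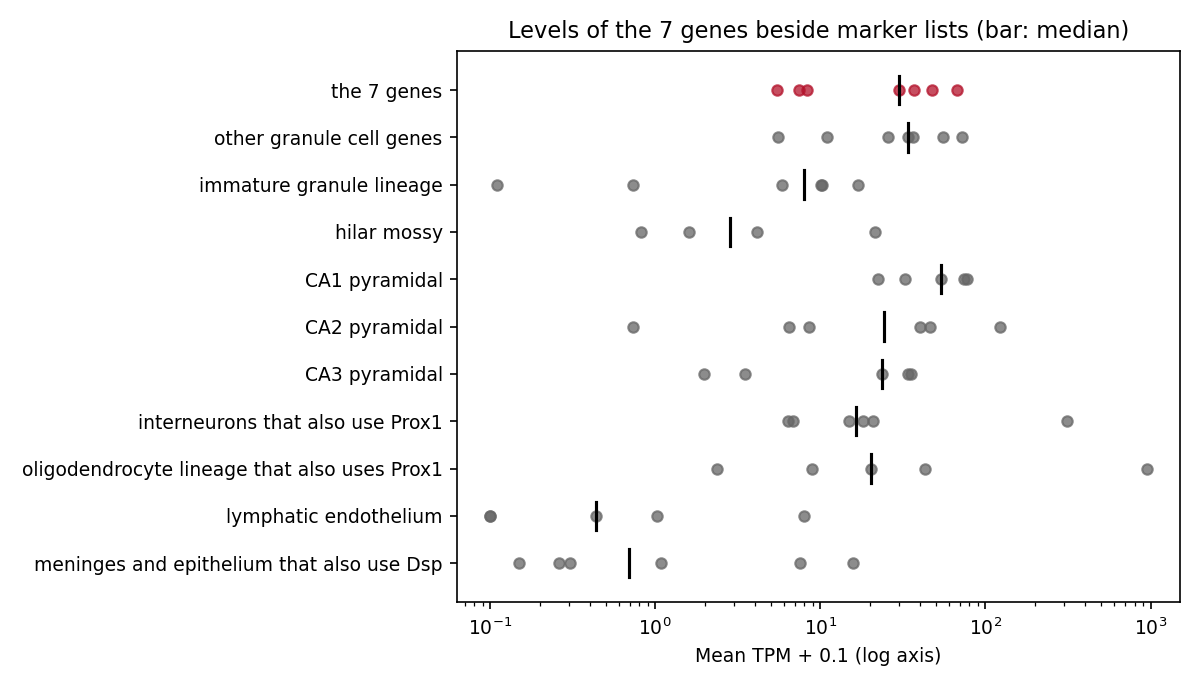
Mean TPM plus 0.1 on a log axis for the 7 genes in red and for the genes of each marker list in grey, 1 point per gene, with a bar at the list's median and 2 points for Ccl21a, annotated under 2 gene identifiers. The 7 genes span 5.34 to 67.4 TPM around a median of 29.7 TPM, and the median is highest for CA1 markers at 53.7 TPM.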

How the data were processed

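Total RNA was measured in 2 hippocampus libraries. The tables refer to mm10 and GENCODE M21, per the deposited text notes. Per the file headers, the authors deposited RSEM gene and transcript tables, with expected counts, TPM, FPKM, the percent of a gene held by each transcript, and posterior means, SDs and credibility bounds (scores), and kallisto transcript tables with estimated counts and TPM. FPKM was not interpreted. For the aligner, program versions and the use of strand, the entry is: not given in the sources used here. Both parental alleles are counted together.

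Genes were matched by symbol through the annotation. Of 81881 gene rows, 96 spike-ins and 26249 rows naming no gene, which took 6 and 2 expected counts (1.95e-05% and 5.58e-06%) in replicates 1 and 2, stayed out of library sizes. The floor of 3 counts is 0.0979 and 0.0840 CPM and covers counting error only. Levels are the mean ± SD of TPM. For the replicate ratio, expected counts were rounded and scaled by TMM in edgeR 4.0.16 (R 4.3.3), prior count 0.5, and the step was tested on simulated data. An intercept-only edgeR fit gave a biological coefficient of variation of 0.0918 over 17576 genes. Shares are of TPM within a gene. Promoters came from the RefSeq table of GRCm38.p6 and junctions and coding sequences from GENCODE M21 transcripts, aligned with Biopython 1.88. Python 3.11.15 with pandas 2.3.3, numpy 2.4.6 and matplotlib 3.10.9 was used.

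Named were all 7 genes, their transcripts with a share of at least 5%, and of other lists every gene of lists up to 6 long, the 3 highest of longer lists, or genes a count turns on. Some genes of the companion lists are not reported here. Genes beyond this rule were picked with their values known. The 7 genes, 9 companion lists and 9 marker lists were chosen with earlier results of these data known. Alternatives were TPM minimums of 0.5 and 5, a pseudocount of 1 in place of 0.1, TPM over nuclear protein-coding genes, posterior mean TPM, kallisto, DESeq2 1.42.0 size factors, spike-in scaling, other count minimums, shares of counts, each replicate left out and, added after seeing the data, models of at least 1000 bases only.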

Additional observations from a re-analysis of the deposited data

How the results depend on the processing

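The median level of the 7 genes was 4.89 as log2(TPM + 0.1), against 1.81 over protein-coding genes and -3.25 over all genes. It became 6.06 when TPM were taken over nuclear protein-coding genes and 5.46 with kallisto, scales on which the TPM of each of the 7 genes was higher, and ran from 4.71 to 5.06 with a replicate left out. The C1ql3 to C1ql2 ratio became 1.85 with kallisto and 2.33 with expected counts, which are not corrected for length, and stayed at 1.82 with either replicate left out. The counts of detected genes and of genes over 2-fold apart stayed at 7 and 0 under every alternative tried. The count of genes with a leading transcript, with C1ql2 and C1ql3 always included, was 5, also with kallisto and with either replicate left out, and 7 by expected counts. Restricting to models of at least 1000 bases lowered Tdo2 to 4.15 TPM, and for Stxbp6, Glis3 and Dsp the level moved by less than the SD. The replicate log2 ratios of C1ql2, C1ql3 and Tdo2 turned positive under spike-in scaling, and that of Tdo2 also on the TPM scale, at 0.00. No paired analysis was possible because the series has 1 group. Depth limits Tdo2 most, with 261 and 303 expected counts, and only 2 libraries bear on the spread.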
